A study of Homo sapiens with 9 samples.

Results

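YAP1, WWTR1 (the gene of TAZ), TEAD1 and 6 of their target genes (CTGF, CYR61, ANKRD1, AMOTL2, AXL and LATS2) were followed through differentiation of esophageal epithelial cells and through silencing of SPINK7. The 9 genes were chosen by name with earlier results of these data known. All 9 were found in each of the 9 deposited tables, among 24672 genes. YAP and TAZ are transcriptional coactivators that enter the nucleus when the Hippo kinases are inactive, and there they bind DNA through TEAD factors. The kinases LATS1 and LATS2 phosphorylate YAP and TAZ and keep them in the cytoplasm. In stratified epithelia nuclear YAP is known chiefly from basal cells on the matrix, and cell density, spreading and tension are known to set its location, so the mRNA of YAP1 is no measure of the activity of its protein.

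The cells were EPC2, a human esophageal epithelial line immortalised with telomerase reverse transcriptase. ALI SPINK7-silenced cultures (3 libraries) had SPINK7, a protease inhibitor gene of squamous epithelium, silenced and were differentiated at an air-liquid interface (ALI). ALI NSC cultures (3 libraries) carried a non-silencing control (NSC) and were differentiated in the same way. Monolayer NSC cultures (3 libraries) carried the non-silencing control and were left undifferentiated. The serum-free keratinocyte medium held EGF at 1 ng/mL and bovine pituitary extract at 50 ug/mL. ALI cells became confluent in 0.09 mM calcium. Calcium was raised to 1.8 mM on day 2, the medium above the cells was removed on day 7, and RNA was taken on day 14. The labels give neither the calcium nor the harvest day of the monolayers, so effects of calcium, time, stratification and air cannot be told apart. They name 1 cell line and 1 silenced population and no construct, so effects of SPINK7 loss and of the construct cannot be told apart either. Separate cultures within a group are not stated, and p-values therefore cover only library-to-library spread, which may be technical.

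Libraries held 7641960 to 14009746 counts, and the 9 genes together took 4377 to 13485 of them. SPINK7 stood at 20.9 to 38.6 CPM in ALI SPINK7-silenced and 225 to 261 CPM in ALI NSC libraries (CPM, counts scaled to a common library size). The ALI libraries numbered 2 stood apart from the other ALI libraries in both arms, at -25.5 (ALI SPINK7-silenced) and -78.5 (ALI NSC) on the second principal component of log2 CPM, against 14.3 to 55.0. Their 7 proliferation genes summed to 15.5 and 27.5 CPM, against 335 to 368 CPM in the other ALI SPINK7-silenced and 150 to 161 CPM in the other ALI NSC libraries, and 25.2 to 57.2 CPM in monolayer NSC libraries. None of the 7 passed for differentiation by edgeR or DESeq2 (0 at an unadjusted p under 0.05), and all 7 passed as higher in ALI NSC without both ALI libraries numbered 2. In that setting 6551 genes (50.7% of those tested) passed in either direction, 3222 of them as higher in ALI NSC. The part of the 7 proliferation genes in the results was not tested. Monolayer libraries 2 and 3 differed from each other by a chi-square of 1.90 per gene, against 16.8 to 160 for the other pairs within groups, where sampling noise alone gives about 1. The 8 squamous differentiation markers summed to 1548 to 2271 CPM in ALI SPINK7-silenced, 15700 to 17030 CPM in ALI NSC and 23.0 to 31.0 CPM in monolayer NSC libraries. Squamous epithelial markers, 9 in all, summed to 45700 to 82860 CPM in ALI SPINK7-silenced, 34400 to 79010 CPM in ALI NSC and 26310 to 27060 CPM in monolayer NSC libraries. Among them the basal epithelial keratin KRT5 was at 7019 to 26879 CPM over the 9 libraries. Others were low in the monolayer NSC libraries, where KRT4 had a mean of 0.85 CPM, KRT13 of 0.41 CPM and SOX2 of 1.67 CPM. The 5 leukocyte markers summed to 8.38 and 12.4 CPM in the ALI libraries numbered 2 and to at most 2.96 CPM in the others, mostly from CD14 in the libraries numbered 2, with PTPRC at 0 in all 9. The 5 endothelial markers summed to at most 10.05 CPM and the 4 melanocyte markers to at most 3.28 CPM. The fibroblast markers are given with AXL.

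TEAD factors bind DNA at CATTCC, or GGAATG when read on the other strand, so the promoters of 3 target genes are shown, with several matches, with 2 and with none. The windows are RefSeq sequences of GRCh38.p14 and cover the 250 bases before the start site, written 5′ to 3′ on the strand of the gene, with CATTCC or GGAATG in capitals.
CTGF (listed as CCN2, minus strand, chr6:131951373-131951622): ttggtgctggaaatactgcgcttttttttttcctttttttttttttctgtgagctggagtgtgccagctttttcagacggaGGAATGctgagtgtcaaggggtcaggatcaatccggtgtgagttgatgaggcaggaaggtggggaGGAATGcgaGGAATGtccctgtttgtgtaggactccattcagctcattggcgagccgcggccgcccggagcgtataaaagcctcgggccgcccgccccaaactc
ANKRD1 (minus strand, chr10:90921088-90921337): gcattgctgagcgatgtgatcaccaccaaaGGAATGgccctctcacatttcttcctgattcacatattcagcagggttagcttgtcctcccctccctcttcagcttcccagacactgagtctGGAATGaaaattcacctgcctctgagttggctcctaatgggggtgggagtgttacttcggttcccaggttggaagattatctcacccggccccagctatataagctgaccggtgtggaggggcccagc
LATS2 (minus strand, chr13:21061587-21061836): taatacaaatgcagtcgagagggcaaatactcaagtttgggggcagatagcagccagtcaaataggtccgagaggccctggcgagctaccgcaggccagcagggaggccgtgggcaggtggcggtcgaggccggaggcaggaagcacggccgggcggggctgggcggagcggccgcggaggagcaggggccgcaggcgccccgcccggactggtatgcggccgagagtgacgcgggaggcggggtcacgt
The CTGF window held 3 matches, whose first bases lie 169, 104 and 95 bases before the start site, and the last 2 are a few bases apart. The ANKRD1 window held 2 matches, 220 and 128 bases before the start, and the LATS2 window held none. At least 1 match was found in 11.9% of the 35116 windows of the table, and 3 or more in 0.083% of them. Of the 9 genes 7 had a window, and 5 of these had a match in at least 1 window, the others being YAP1, AMOTL2 and AXL. Some genes had more than 1 window, and 5 of the 10 windows of these genes held a match. TEAD1 and CYR61 had no window in the table. A match is a run of letters and not a measured binding site.

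None of the 3 factor genes YAP1, WWTR1 and TEAD1 passed the test in any of the 3 comparisons. YAP1 (chromosome 11, 101981192 to 102104154, plus strand, hg19) was at 242, 225 and 252 CPM in ALI SPINK7-silenced libraries 1, 2 and 3, at 286, 261 and 185 CPM in ALI NSC, and at 223, 227 and 246 CPM in monolayer NSC libraries. The groups overlapped in every pairing. The log2 fold change of YAP1 was -0.03 for silencing (ALI SPINK7-silenced minus ALI NSC, 95% interval -0.53 to 0.48, adjusted p = 0.977) and 0.07 for differentiation (ALI NSC minus monolayer NSC, interval -0.44 to 0.58, adjusted p = 0.804), and its sign turned when single libraries were left out. At least 96.9% of the YAP1 counts of each library fell on 1 of its 2 transcript rows.

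WWTR1 (chromosome 3, 149235022 to 149421060, minus strand), which encodes the YAP paralog TAZ, was at 44.1, 25.2 and 47.8 CPM in ALI SPINK7-silenced libraries, at 62.0, 27.4 and 51.5 CPM in ALI NSC, and at 41.8, 33.3 and 33.6 CPM in monolayer NSC libraries. The lowest value of both ALI groups was that of library 2. WWTR1 gave -0.27 for silencing (SE 0.33, adjusted p = 0.820) and 0.37 for differentiation (SE 0.33, adjusted p = 0.383). Without both ALI libraries numbered 2 the differentiation value was 0.65 and passed (adjusted p = 0.00808). The antisense gene that overlaps WWTR1 had 0 to 5 counts per library. Of the 3 transcript rows of WWTR1, which were summed, the second largest took 35.15% of the counts in ALI SPINK7-silenced library 2. It took 33.18% in ALI NSC library 2, 5.15% in ALI SPINK7-silenced library 3 and 18.43% to 22.18% in the others.

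TEAD1 (chromosome 11, 12695969 to 12966284, plus strand), the DNA-binding partner, was at 161, 123 and 165 CPM in ALI SPINK7-silenced libraries, at 154, 70.6 and 111 CPM in ALI NSC, and at 106, 132 and 126 CPM in monolayer NSC libraries. It gave 0.42 for silencing (SE 0.27, adjusted p = 0.697) and -0.11 for differentiation (SE 0.27, adjusted p = 0.761). The differentiation sign turned without ALI NSC library 2 (0.13).

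**Figure D1:**
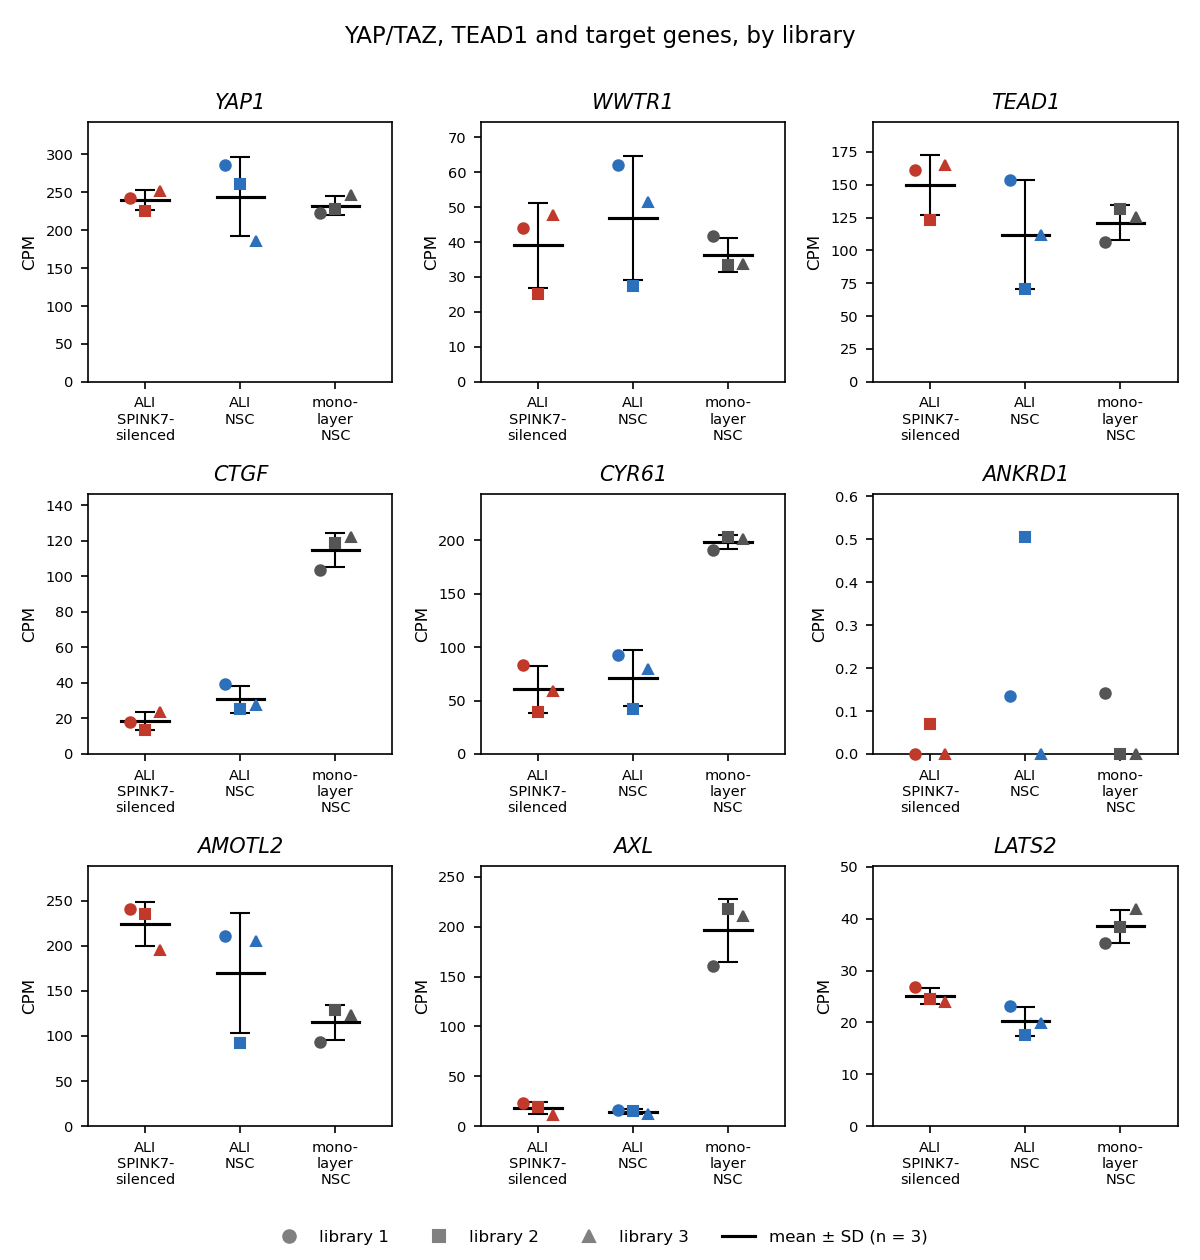
CPM of each of the 9 genes (vertical axes, from 0) in the 9 libraries, with a circle, square or triangle for libraries 1, 2 and 3 and black bars for mean ± SD (n = 3; none drawn for ANKRD1, with at most 4 counts in a library). CTGF, CYR61, AXL and LATS2 lie higher in all monolayer NSC libraries than in any ALI library, while YAP1 overlaps between the groups.

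Among the target genes, 4 fell with differentiation: AXL, CTGF, CYR61 and LATS2. They were 4 of the 8 genes that passed the filter on low counts (50.0% of them), and none rose. Over all 12806 genes tested 40.5% passed in this comparison, 20.3% higher and 20.2% lower, so the share that passed in either direction was near that of all genes. The groups did not overlap for the same 4 genes, where 57.3% of all genes did not overlap, 27.3% higher and 29.9% lower. The median log2 fold change of the 8 was -0.52, and that of all genes 0.03. In bulk RNA, fewer cells that express a gene and less of its RNA per cell cannot be told apart.

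AXL (chromosome 19, 41725108 to 41767671, plus strand) encodes a receptor tyrosine kinase that binds GAS6. It was at 16.5, 15.3 and 11.9 CPM in ALI NSC libraries, against 160, 217 and 211 CPM in monolayer NSC libraries. The groups did not overlap. AXL fell to 7.42% of the monolayer level (log2 fold change -3.75, SE 0.30, adjusted p = 1.34e-05). The mesenchymal marker VIM, which cultured epithelial cells can also express, was at 43.4 to 158 CPM in ALI NSC and 1704 to 2104 CPM in monolayer NSC libraries. The 9 fibroblast markers summed to 55.6 to 198 CPM in ALI NSC and 1890 to 2157 CPM in monolayer NSC libraries. Apart from VIM and the collagen gene COL1A1 (at most 184 CPM) none of them exceeded 1.27 CPM in any library, LUM was at 0 in all, and their part in the result was not tested.

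CTGF (chromosome 6, 132269317 to 132272518, minus strand) and CYR61 (chromosome 1, 86046444 to 86049648, plus strand) encode secreted matricellular proteins of the CCN family and are the most widely used readouts of YAP and TAZ. CTGF was at 39.6, 25.4 and 27.5 CPM in ALI NSC libraries, against 104, 119 and 122 CPM in monolayer NSC libraries. It fell to 26.9% of the monolayer level (log2 fold change -1.90, SE 0.26, adjusted p = 0.000380). CYR61 was at 92.4, 41.7 and 80.0 CPM in ALI NSC libraries, against 191, 203 and 202 CPM in monolayer NSC libraries. It fell to 35.9% of the monolayer level (log2 fold change -1.48, SE 0.33, adjusted p = 0.00601). The monolayer values of both genes lay within a narrow band, and the ALI NSC values did not reach it. Monolayer libraries 2 and 3 are the pair closest to sampling noise, so the band may be narrower than the spread between cultures.

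LATS2 (chromosome 13, 21547176 to 21635722, minus strand) encodes a kinase that restrains YAP and TAZ and is itself one of their targets. It was at 23.2, 17.5 and 19.98 CPM in ALI NSC libraries, against 35.4, 38.5 and 41.8 CPM in monolayer NSC libraries. It fell to 52.5% of the monolayer level (log2 fold change -0.93, SE 0.19, adjusted p = 0.00383), with no overlap between the groups. The falls of AXL, CTGF, CYR61 and LATS2 passed in all 16 alternatives.

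AMOTL2 (chromosome 3, 134074190 to 134093406, minus strand), a junction protein of the angiomotin family that binds YAP and is also a target gene, did not pass in this comparison. It was at 211, 92.5 and 206 CPM in ALI NSC libraries, against 93.1, 129 and 123 CPM in monolayer NSC libraries, so that ALI NSC libraries 1 and 3 lay above the monolayers and library 2 below them. The log2 fold change was 0.56 (SE 0.30, adjusted p = 0.162). Without ALI NSC library 2 it was 0.86 and passed (adjusted p = 0.00558). It also passed without both ALI libraries numbered 2 (0.86, adjusted p = 0.00178).

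ANKRD1 (chromosome 10, 92671857 to 92681032, minus strand), a YAP target best known from muscle, was hardly detected. It had 1 count in the ALI SPINK7-silenced, 5 in the ALI NSC and 2 in the monolayer NSC libraries and did not pass the filter on low counts. The ratio of ALI SPINK7-silenced to ALI NSC was 0.147 (95% counting interval 0.00311 to 1.31), and that of ALI NSC to monolayer NSC was 3.36 (0.550 to 35.3). At this depth no difference was detectable.

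**Figure D2:**
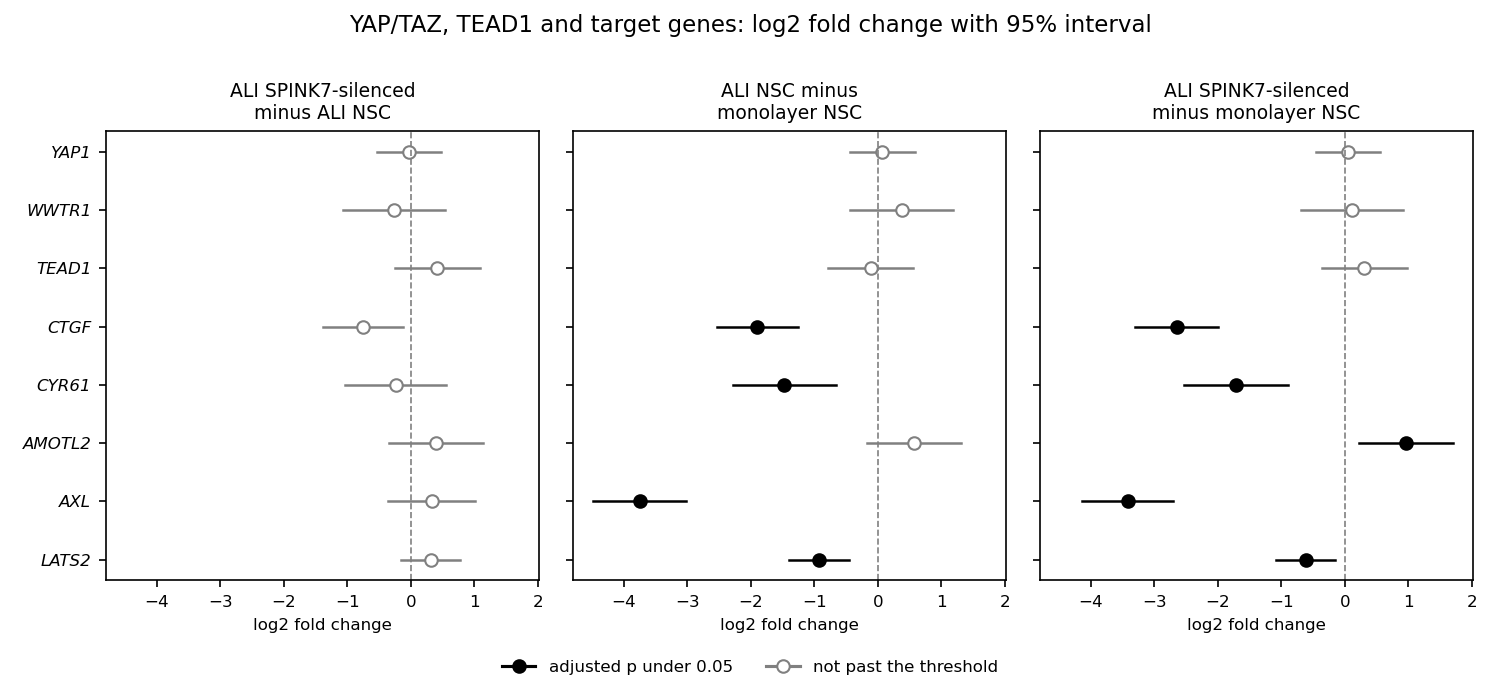
Log2 fold change (horizontal axis) with its 95% interval for the 8 tested genes in 3 comparisons, filled where the adjusted p is under 0.05. AXL has the lowest value in both comparisons with the monolayers, at -3.75 and -3.42, and no point is filled in the silencing panel.

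None of the 8 tested genes passed the test for SPINK7 silencing, with edgeR or with DESeq2, under any of the 16 alternatives. Over all genes 0.929% passed, 0.226% higher and 0.703% lower, so a count of 0 among 8 genes is near the background. In simulated counts for silencing, 12 of 100 genes with a true log2 fold change of 1 were recovered, and 87 of 100 with 2. A count of 0 therefore does not show that the 8 genes were unchanged. CTGF alone had an unadjusted p under 0.05 by edgeR, as 1173 of all 12806 genes had. The median log2 fold change of the 8 was 0.14, and that of all genes 0.01.

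CTGF was at 18.2, 13.3 and 23.4 CPM in ALI SPINK7-silenced libraries, against 39.6, 25.4 and 27.5 CPM in ALI NSC libraries. The groups did not overlap, with 59.3% of the ALI NSC level in the silenced libraries (log2 fold change -0.75, interval -1.38 to -0.13), but the adjusted p was 0.291, and it was 0.104 to 0.710 over the alternatives. LATS2, at 26.9, 24.6 and 23.9 CPM in ALI SPINK7-silenced and 23.2, 17.5 and 19.98 CPM in ALI NSC libraries, was the other gene whose groups did not overlap (log2 fold change 0.31, SE 0.19, adjusted p = 0.681). Groups did not overlap for 12.1% of all genes in this comparison, 5.76% higher and 6.34% lower.

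CYR61 was at 83.1, 39.5 and 59.4 CPM in ALI SPINK7-silenced libraries, against 92.4, 41.7 and 80.0 CPM in ALI NSC libraries (log2 fold change -0.24, interval -1.04 to 0.56, adjusted p = 0.843). Library 2 was the lowest of both groups, and library 1 the highest. AXL was at 23.5, 19.6 and 11.5 CPM in ALI SPINK7-silenced and 16.5, 15.3 and 11.9 CPM in ALI NSC libraries (0.33, interval -0.35 to 1.01, adjusted p = 0.754). AMOTL2 was at 241, 236 and 196 CPM in ALI SPINK7-silenced libraries, against 211, 92.5 and 206 CPM in ALI NSC libraries (0.40, interval -0.34 to 1.14, adjusted p = 0.731). The AMOTL2 value was 0.07 without both ALI libraries numbered 2.

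Set directly against the monolayers, the ALI SPINK7-silenced libraries had AXL at 9.31% of the monolayer level (log2 fold change -3.42, SE 0.29, adjusted p = 2.64e-05), CTGF at 15.9% (-2.65, SE 0.27, adjusted p = 7.52e-05) and CYR61 at 30.5% (-1.71, SE 0.33, adjusted p = 0.00361). LATS2 was also lower (-0.62, SE 0.19, adjusted p = 0.0315) and AMOTL2 was higher (0.96, SE 0.30, adjusted p = 0.0358). These were 5 of 8 genes, where 31.7% of all genes passed, 15.8% higher and 15.9% lower. The groups did not overlap for these 5 genes, where 55.7% of all genes did not overlap, 28% higher and 27.7% lower. The AMOTL2 and LATS2 calls were lost without any 1 ALI SPINK7-silenced or monolayer NSC library and with monolayer libraries 2 and 3 summed (adjusted p from 0.0710 to 0.138 and from 0.0536 to 0.120), and that of LATS2 also without the low-count filter (0.0678). This comparison shares the monolayer libraries with the differentiation comparison and the silenced libraries with the silencing comparison.

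Per transcript length, in the RPKM of the deposited tables (read counts scaled by transcript length and library size), the order of the genes differed between the groups. In ALI SPINK7-silenced libraries YAP1 (38.9 ± 1.93 RPKM) and AMOTL2 (38.8 ± 4.27) came first and overlapped, followed by CYR61 (22.7 ± 7.85), TEAD1 (13.7 ± 1.95), CTGF (6.74 ± 1.82) and WWTR1 (6.74 ± 2.05), the last 2 overlapping (SD, n = 3). In ALI NSC libraries YAP1 (36.2 ± 7.63), AMOTL2 (27.6 ± 12.2) and CYR61 (25.2 ± 10.5) led, and neighbours in the order overlapped down to WWTR1 (7.604 ± 3.25). In monolayer NSC libraries CYR61 (77.9 ± 2.91) led without overlap, and CTGF (44.0 ± 3.997), YAP1 (39.1 ± 2.37) and AXL (37.4 ± 6.19) followed with overlap between neighbours. AXL was eighth in both ALI groups, at 3.35 ± 1.11 RPKM in ALI SPINK7-silenced and 2.47 ± 0.406 RPKM in ALI NSC libraries. ANKRD1 was last everywhere, at no more than 0.186 RPKM in a library.

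**Figure D3:**
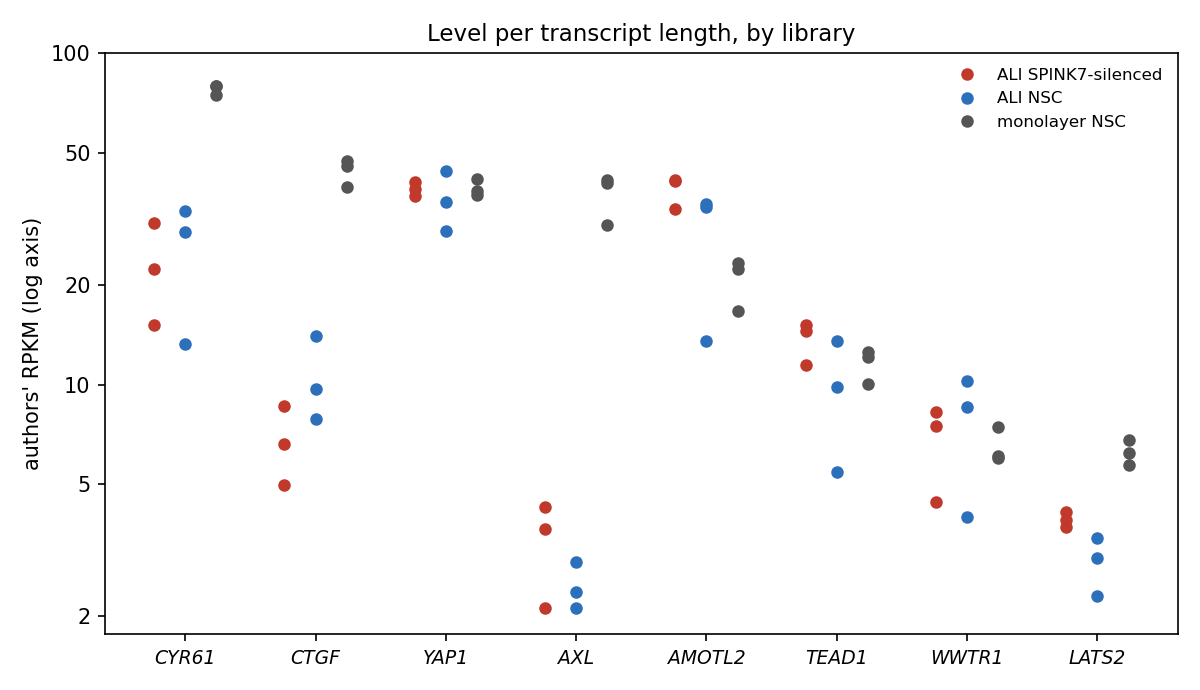
RPKM of the deposited tables (vertical log axis) for 8 genes in the order of their monolayer means, with 1 point per library and a colour per group; ANKRD1, with libraries at 0, is not drawn. AXL lies at 30.2 to 41.4 RPKM in monolayer NSC and at 2.12 to 4.27 RPKM in the ALI libraries.

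Of the other TEAD factors, TEAD2 fell with differentiation. It was at 6.03, 3.78 and 4.44 CPM in ALI NSC libraries, against 51.3, 53.8 and 54.3 CPM in monolayer NSC libraries, and fell to 8.94% of the monolayer level (log2 fold change -3.48, SE 0.29, adjusted p = 1.56e-05). TEAD3 (-0.45, SE 0.30, adjusted p = 0.247) and TEAD4 (0.45, SE 0.44, adjusted p = 0.440) did not pass. In ALI SPINK7-silenced libraries TEAD2 was at 7.85, 4.19 and 6.32 CPM, within reach of ALI NSC (0.36, adjusted p = 0.733).

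VGLL proteins bind TEAD factors in competition with YAP and TAZ, and VGLL4 is known as a repressor of TEAD targets. VGLL1 had 0 counts in the monolayer NSC libraries and was at 17.5, 9.46 and 18.0 CPM in ALI NSC libraries, at least 168-fold higher against a floor of 3 counts over the monolayer group (adjusted p = 3.51e-05). VGLL1 was at 11.03, 18.0 and 9.48 CPM in ALI SPINK7-silenced libraries, which overlapped with ALI NSC. VGLL4 fell to 47.7% with differentiation (log2 fold change -1.07, SE 0.23, adjusted p = 0.00517). VGLL3 was at 156, 136 and 142 CPM in ALI SPINK7-silenced libraries, at 100, 56.9 and 46.0 CPM in ALI NSC, and at 48.7, 24.99 and 25.9 CPM in monolayer NSC libraries. All silenced libraries lay above all ALI NSC libraries, as for 5.76% of all genes, with a log2 fold change of 1.09 (interval 0.27 to 1.92, adjusted p = 0.229). VGLL3 rose with differentiation (1.03, SE 0.34, adjusted p = 0.0352), a call lost without ALI NSC library 1 (adjusted p = 0.140), monolayer library 2 (0.125) or 3 (0.121), ALI SPINK7-silenced library 3 (0.0520), with monolayer libraries 2 and 3 summed (0.121) and in the fit on both groups alone (0.0605).

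**Figure D4:**
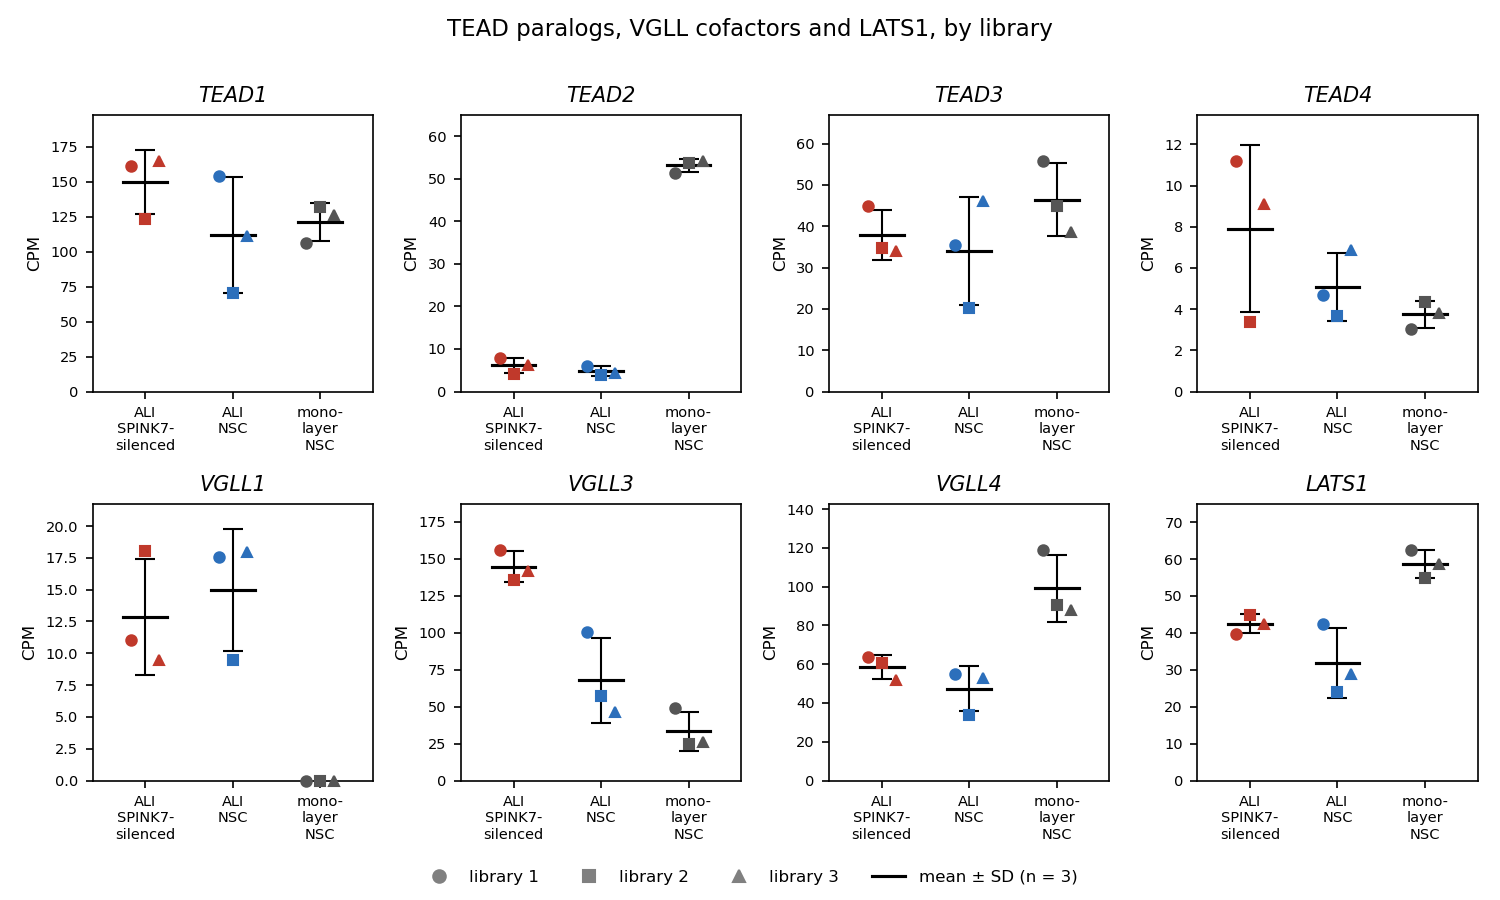
CPM (vertical axes, from 0) of the TEAD genes, VGLL1, VGLL3, VGLL4 and LATS1 in the 9 libraries, with a circle, square or triangle for libraries 1, 2 and 3 and black bars for mean ± SD (n = 3; none drawn for VGLL1 in monolayers, at 0 counts). TEAD2 lies at 51.3 to 54.3 CPM in monolayer NSC and at 3.78 to 7.85 CPM in the ALI libraries, and VGLL1 was detected in ALI libraries alone.

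In a list of 10 YAP/TAZ, TEAD and VGLL genes, 9 were tested, of which 2 rose (22.2%) and 2 fell (22.2%) with differentiation, near the 20.3% and 20.2% of all genes. None of the 9 passed for silencing by edgeR or DESeq2 (1 at an unadjusted p under 0.05, VGLL3). Among 22 Hippo kinases, scaffolds and upstream regulators, 10 fell and 1 rose with differentiation, with a median log2 fold change of -0.74 (all genes 0.03). The falls were 45.5% of the 22, a list also chosen with earlier results of these data known, where 20.2% of all genes fell. Over the 16 alternatives 8 to 11 of the 22 fell and 1 to 3 rose, and the list holds 2 of the 9 genes. Those that fell included AMOT (-2.60, adjusted p = 0.00921), an angiomotin at no more than 2.20 CPM; PTPN14 (-1.53, adjusted p = 0.000214), a phosphatase that binds YAP; MOB1B (-1.47, adjusted p = 0.000978), a coactivator of the LATS kinases; and WTIP (-1.34, adjusted p = 0.00144), a LIM protein of the Ajuba family. LATS1 fell to 54.1% (-0.89, SE 0.23, adjusted p = 0.0115). STK3, which encodes the upstream kinase MST2, rose (1.19, adjusted p = 0.0100), at 43.7 to 83.1 CPM in ALI NSC and 19.8 to 30.3 CPM in monolayer NSC libraries. For silencing none of the 22 passed with edgeR. Of these, 4 had an unadjusted p under 0.05, and 1 gene, FRMD6, passed with DESeq2 as lower and is named after its values were seen. Over all genes 1173 of 12806 had such an unadjusted p by edgeR, and 415 (2.85%) passed with DESeq2.

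A list of 22 conserved YAP/TAZ targets, which holds 6 of the 9 genes, had 20 tested members. With differentiation 12 of these fell (60.0%, against 20.2% of all genes) and none rose, with a median log2 fold change of -1.07. The list was chosen with earlier results of these data known, so its share is a description and not a test. LATS2 and PTPN14 are also among the Hippo regulators that fell. Of the 12, 4 are among the 9 genes. Beyond AXL, CTGF, CYR61 and LATS2 they included RBMS3 (-2.06, adjusted p = 0.00282), an RNA-binding protein gene; TGFB2 (-2.04, adjusted p = 0.00184), a growth factor gene; and NT5E (-1.99, adjusted p = 0.000785), which encodes the ecto-nucleotidase CD73. NT5E was at 134, 74.0 and 133 CPM in ALI SPINK7-silenced libraries, at 61.5, 41.7 and 48.4 CPM in ALI NSC and at 139, 237 and 227 CPM in monolayer NSC libraries. For silencing none of the 20 passed with edgeR, 6 had an unadjusted p under 0.05 (4 higher and 2 lower), and NT5E passed with DESeq2 (adjusted p = 0.0179). Over all genes 1173 of 12806 had such an unadjusted p by edgeR, 524 higher and 649 lower, and 415 (2.85%) passed with DESeq2. By edgeR NT5E gave 1.17 (SE 0.30, adjusted p = 0.127), and it passed without both ALI libraries numbered 2 (1.28, adjusted p = 0.00952) and without ALI SPINK7-silenced library 2 (1.38, adjusted p = 0.0439). In those settings 5.48% and 1.82% of all genes passed. The median for silencing was 0.41, against 0.01 for all genes. It was 0.32 for the Hippo kinases, scaffolds and upstream regulators and 0.31 for the YAP/TAZ, TEAD and VGLL genes. The target list summed to 1287 CPM in ALI NSC library 2, against 2190 and 2728 CPM in the other ALI NSC libraries. In ALI SPINK7-silenced libraries it summed to 2161 CPM in library 2, against 2855 and 3170 CPM in the others. The count of 12 was 11 or 12 over the 16 alternatives, and 1 gene of the list rose without ALI NSC library 2 and without both ALI libraries numbered 2.

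**Figure D5:**
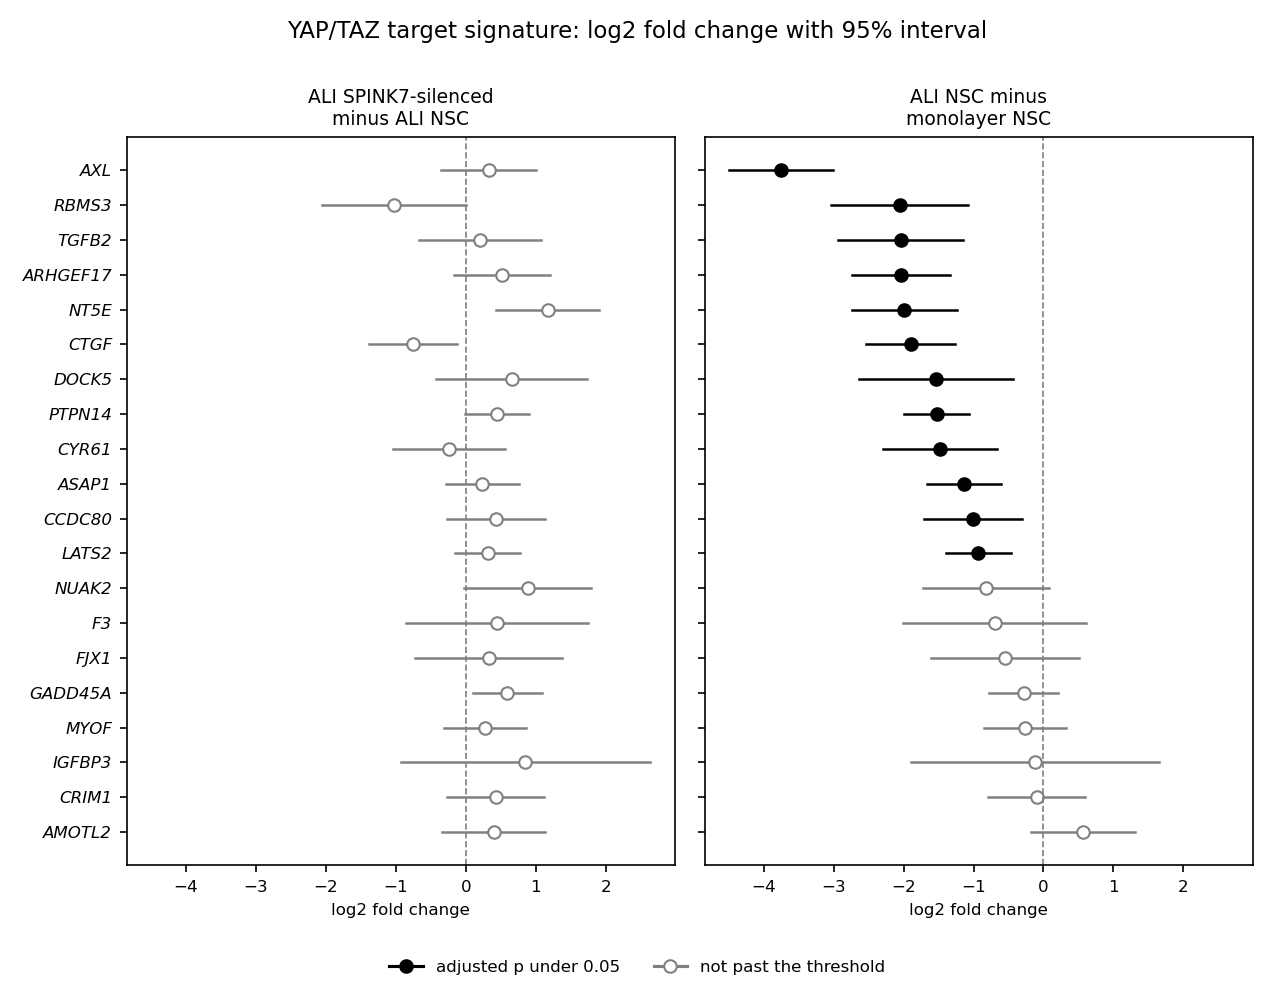
Log2 fold change (horizontal axis) with its 95% interval for the 20 tested genes of the target list in the silencing and differentiation comparisons, ordered by the differentiation values and filled where the adjusted p is under 0.05. In the differentiation panel 12 genes are filled, all of them below 0, and in the silencing panel none is.

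The genes whose log2 CPM followed a member most closely over the 9 libraries were described by Pearson's r, with no test, since the libraries fall into groups and share depth. For CTGF they were TOX (r = 0.990), CDK14 (0.988) and MSRB3 (0.985), with CDK14 at 4.77, 4.40 and 5.50 CPM in ALI SPINK7-silenced, 6.96, 5.68 and 6.56 CPM in ALI NSC and 18.9, 18.4 and 19.4 CPM in monolayer NSC libraries. For CYR61 they were FBXL12 (0.991), ANKRD36B (0.989) and FADD (0.989). For YAP1 they were CD2AP (0.933), B3GNT5 (0.884) and SMNDC1 (0.883). Of these genes TOX was low, at 0.137 to 3.04 CPM over the 9 libraries, and so was ANKRD36B, at 0.618 to 3.62 CPM.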

How the data were processed

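PolyA-selected stranded RNA was sequenced from 9 libraries in 3 groups of 3, per the labels' protocols. The submitters' processing notes list hg19 with STAR 2.4.2a, Bowtie and MACS2 and assign no role to any. How reads were counted, on which annotation and with which strand setting is not given in the sources used here. Each deposited table held 29800 transcript rows with raw read counts and with RPKM computed by the authors. Rows of 1 symbol and chromosome were summed to 24672 genes. RPKM was used only for levels per length.

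Counts went into edgeR 4.0.16 (R 4.3.3) with TMM scaling, filterByExpr (12806 genes kept), and a quasi-likelihood F-test from 1 robust fit of the 9 libraries. P-values were adjusted by Benjamini-Hochberg over all genes of a comparison (threshold 0.05). Standard errors were taken from the F statistic, and 95% intervals use 6 degrees of freedom. The script was tested on simulated counts. Alternatives were DESeq2 1.42.0, its size factors in edgeR, no filter, fits on both groups alone, a replicate block, and libraries left out or summed. Named are the 9 genes, TEAD2, TEAD3, TEAD4, LATS1, VGLL4 and SPINK7 whatever their values, up to 4 further genes per list and comparison that passed, by absolute log2 fold change, and the 3 genes most correlated with each of YAP1, CTGF and CYR61. A gene of the target list that this rule names is not reported here. Other genes are markers, or are said to be named after their values were seen. The 9 genes and the lists were chosen with earlier results of these data known. Promoters are RefSeq sequences of GRCh38.p14. Counting intervals and floors cover counting error only.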

Additional observations from a re-analysis of the deposited data

How the results depend on the processing

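Low counts limit ANKRD1 and AMOT. None of the 8 genes changed its side of the threshold for silencing. Whether the replicate numbers pair the libraries is not settled. Deviations of same-numbered ALI libraries from their group means correlated at 0.495, 0.577 and -0.00628, so not all reached the minimum of 0.1 set for pairing. Those of differently numbered ALI libraries correlated at -0.691 to 0.637. With the replicate block, VGLL3 passed for silencing (1.18, adjusted p = 0.0487), LATS2 did not pass against the monolayers (adjusted p = 0.0576), and 176 genes passed for silencing, 5132 for differentiation and 4000 for silenced ALI against monolayer.

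Over all genes 119 passed for silencing. The count was 415 with DESeq2, 59 in the fit on both groups alone, 708 without both ALI libraries numbered 2, 79 with monolayer libraries 2 and 3 summed, and 28 to 236 with single libraries left out. For differentiation 5190 passed, 6551 (50.7% of those tested) without both ALI libraries numbered 2, and 3580 to 5478 with single libraries left out. For silenced ALI against monolayer 4058 passed, 6459 without both ALI libraries numbered 2, and 2653 to 5743 with single libraries left out. Of the 8 genes, 4 passed for differentiation (4 to 5 with single libraries left out, 6 without both ALI libraries numbered 2). For silenced ALI against monolayer 5 passed (3 with monolayer libraries 2 and 3 summed, 3 to 5 with single libraries left out). The cause was not tested.

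Among the named genes, signs turned only for values that did not pass. Without both ALI libraries numbered 2, YAP1 was 0.069 and TEAD3 -0.049 for silencing, and TEAD1 was 0.13 for differentiation. With single libraries left out, the silencing values ran from -0.19 to 0.11 for YAP1, from -0.11 to 0.44 for TEAD3, from -0.17 to 0.84 for AMOT, from -0.34 to 0.11 for MOB1B, from -0.10 to 0.59 for TGFB2 and from -0.16 to 0.33 for STK3. Those for differentiation ran from -0.055 to 0.24 for YAP1 and from -0.41 to 0.13 for TEAD1, and WWTR1 ran from -0.073 to 0.33 for silenced ALI against monolayer.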
